A study of Drosophila melanogaster with 12 samples.

Results

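The comparison described here set S2R+ cells kept at 30 °C against S2R+ cells kept at 25 °C, on the 3 DNA microarrays titled with each of these temperatures, 6 of the 12 arrays of the series. S2R+ is a Drosophila melanogaster line established from embryos, with features of hemocytes, the blood cells of the fly. Cells of the warmer group were plated at 1500000 and cells of the other group at 1700000 a dish, were left to settle and were then moved to their temperature for 24 h. All groups carried the same genotype and medium, and the remaining 6 arrays came from 14 and 11 °C. Cells of those groups were plated at 3500000 and 4500000 a dish. Total RNA of each culture was labelled with a single dye and hybridised to an Agilent array of its own, and the labels describe the 3 replicates of a temperature as biological.

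A shift to a warmer temperature is known to unfold proteins in fly cells and thereby to set free heat shock factor, which drives the transcription of heat shock protein (Hsp) genes within minutes. Small Hsps bind unfolding proteins and keep them soluble, Hsp70 and its J-domain partners refold them with ATP, Hsp90 matures signalling proteins, and the ring-shaped chaperonin folds actin and tubulin. A temperature of 30 °C lies near the upper end of the range in which flies live, well under the temperatures used for an acute heat shock.

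Of the gene spots, between 58.8% and 59.7% on the arrays at 30 °C were well above background, against between 55.5% and 58.2% on the arrays at 25 °C. Among the 3 arrays of a temperature, Pearson's r across features was between 0.991 and 0.996 at 30 °C and between 0.984 and 0.996 at 25 °C. The 25 °C array of replicate 1 stood apart from its group. On this array 710 of 9180 genes lay at least 2-fold from the mean of the other 25 °C arrays, whereas the corresponding number was at most 307 on the other 5 arrays. It shared slide 1 with the 30 °C array of replicate 1. The other 4 arrays shared slide 2, so that a change can also be read within each slide. What this array changes is given beside a part of the results.

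Most markers of hemocyte-like cells were detected at both temperatures. Of 13 such genes, 11 exceeded background on each of the 6 arrays, among them the GATA factors srp and pnr and the scavenger receptor crq. The exceptions were Hml and NimC1. At 25 °C, Hml exceeded background with any of its probes on 2 of 3 arrays and with all of them on 0, and NimC1 did so on 0 of 3. The summed signal of the list was between 31197 and 38015 units on the arrays at 30 °C and between 29476 and 38211 units at 25 °C. Of the crystal cell markers, lz was not detected on any array, and of the lamellocyte markers atilla was not. PPO3, a lamellocyte phenol oxidase, was present and fell to 3312, 2775 and 2876 units at 30 °C, against 7478, 6269.9 and 5932 units at 25 °C (-1.13 ± 0.12, adjusted p = 9.74e-05). None of the 4 fat body markers and none of the 3 gut markers was well above background on all 6 arrays. All 5 markers of neurons were detected, with summed signals between 5608 and 10346 units at 30 °C and between 6314 and 10306 units at 25 °C. Of the neuron markers, brp alone was called higher, with means of 64.1 units at 30 °C and 31.2 units at 25 °C (1.04, adjusted p = 0.0037). The sums overlapped between temperatures for the hemocyte-like and neuron lists and for none of the other 7. They were lower at 30 °C for lamellocytes, at between 2785 and 3325 units at 30 °C and between 6018 and 7586 units at 25 °C, and for adult muscle precursors, at between 6924 and 7528 units at 30 °C and between 8822 and 10463 units at 25 °C. The germ line list was lower too, at between 3377 and 4539 units at 30 °C and between 5512 and 7115 units at 25 °C, as was the fat body list, at between 14.2 and 27.6 units at 30 °C and between 49.8 and 387 units at 25 °C. Of the fat body list, Fbp1 exceeded background at 25 °C only. The sums were higher at 30 °C for crystal cells, at between 249 and 286 units at 30 °C and between 146 and 166 units at 25 °C, and for epithelium, at between 112 and 146 units at 30 °C and between 80.8 and 89.2 units at 25 °C. The gut list was between 23.04 and 26.3 units at 30 °C and between 13.1 and 21.8 units at 25 °C. Of the gut list, Amy-p was called higher (1.63, adjusted p = 0.0014) but was dim, and was above background on 3 of 3 arrays at 30 °C and 0 at 25 °C. Several sums rested mostly on 1 gene. In mean signal at 30 °C, PPO3 held 2979 of 2990 units for lamellocytes, PPO2 248 of 268 units for crystal cells and Amy-p 19.5 of 24.5 units for gut. The gene zfh1 held 6633 of 7133 units for adult muscle precursors, and aub 3231 of 3726 units for the germ line. Neither zfh1 (-0.36, adjusted p = 0.0586), aub (-0.77, adjusted p = 0.0138) nor PPO2 (0.94, adjusted p = 0.0010) was called, and PPO2 missed the required fold only. The part of other cell types in the results was not tested.

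Calls required a change of 2-fold or more and an adjusted p under 0.01 in limma, in a fit without a block for replicate or slide. By this rule 630 features (4.17% of 15114) were higher at 30 °C and 512 (3.39%) were lower, 7.56% in all. A feature is a gene of the RefSeq table or, where a probe could not be matched to one, the transcript identifier of the array design. Of the 9180 RefSeq genes tested, 377 (4.11%) rose and 298 (3.25%) fell, 7.35% in all. These shares are the background for every count of list members below. On all 675 called genes the 3 arrays of 30 °C did not overlap the 3 of 25 °C, against 39.7% of all genes tested. Of the called genes, 114 were at least 4-fold higher at 30 °C and 57 at least 4-fold lower.

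The balance of rises and falls moved with the treatment of dim genes. Of the 7598 genes detected with all their probes on each of the 6 arrays, 200 rose and 230 fell, whereas probes with a signal over 100 units gave 376 higher and 329 lower features. In addition, 84 called genes exceeded background throughout at 30 °C and nowhere at 25 °C, while 8 showed the opposite. The larger share of spots above background on the 30 °C arrays moves with this count, and its part in it was not tested. The split also moved with the scaling of the arrays. Scaling on spike-in controls gave 896 higher and 285 lower features, or 75.9% higher, in place of 55.2%, and it moved the median change of all features to 0.17 on the log2 scale, in place of -0.08. All 675 called genes changed in the same direction on slide 1 and on slide 2, which had to follow since their 30 and 25 °C arrays do not overlap. Of these genes, 586 changed by at least 2-fold on slide 1 and 638 on slide 2. The calls were made on these same arrays. In RNA from whole cultures, fewer cells of a type and less RNA per cell cannot be told apart.

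**Figure D1:**
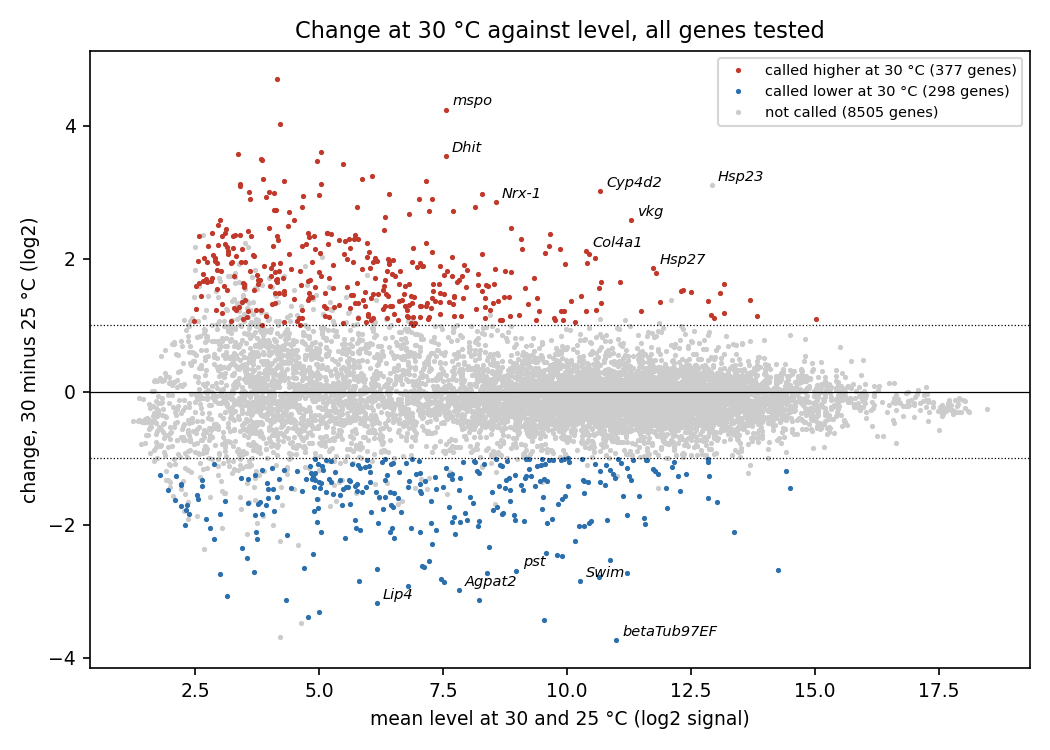
Change between 30 and 25 °C (log2) against the mean level of both temperatures (log2 signal) for each of the 9180 genes tested. Red points are the 377 genes called higher at 30 °C and blue points the 298 called lower, and the dotted lines mark a 2-fold change. Many red points lie at the dim end, and Hsp23 is a grey point with a change of 3.104.

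Among the genes of the heat shock system, the small Hsp genes stood furthest above the other lists. All 10 members tested, out of 11 with probes, lay above 0, with a median change of 0.94 on the log2 scale, while the median of all genes was -0.09. Of these, 2 were called higher and 0 lower, beside 4.11% and 3.25% of all genes, and the median kept its sign under each scaling. The largest change was that of Hsp23, with 24915, 21079.5 and 22126 units at 30 °C, against 11102, 1275 and 1291 units at 25 °C. The array that stood apart thus held most of the spread at 25 °C, and the change of 3.104 ± 0.76 (SE, adjusted p = 0.0139) missed the threshold, which it passed with scaling on the 75th percentile or on spike-in controls. Hsp27 rose 3.62-fold (1.85 ± 0.33, adjusted p = 0.00229), with 7552, 6400.3 and 5607 units at 30 °C, against 3306, 1367 and 1269 units at 25 °C. The corresponding signals of Hsp22 were 9309, 6649 and 5737 units at 30 °C, against 8138, 1619 and 1527 units at 25 °C, where the groups overlapped. Those of Hsp26 were 6183, 4889.8 and 4035 units at 30 °C, against 9490.5, 1344 and 1448 units at 25 °C, where the first 25 °C array lay above all others.

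Without the 25 °C array of replicate 1, 6 of the 10 small Hsp genes were called higher and the median change was 1.56. In this fit Hsp23 changed by 4.14 ± 0.50, adjusted p = 4.00e-04, Hsp27 by 2.30 ± 0.22, adjusted p = 9.31e-05, Hsp22 by 2.17 ± 0.26, adjusted p = 3.57e-04 and Hsp26 by 1.83 ± 0.24, adjusted p = 6.87e-04. With the replicate number as a block, 3 members were called, including Hsp23 (adjusted p = 0.00162). Hsp23 was also called with the slide as a block (adjusted p = 0.00151). Within slides, the median change of the list was 0.33 on slide 1 and 1.52 on slide 2. Hsp67Ba, which belongs to the same chromosomal cluster as several of these genes, had a first 25 °C array that did not stand apart. It gave 473, 446 and 471 units at 30 °C, against 213, 243 and 249 units at 25 °C, a change of 0.98 ± 0.14 that lay just under the required fold (adjusted p = 6.31e-04) and passed it with either of these scalings and without 25 °C replicate 2 or 3 or 30 °C replicate 2. The other called member, l(2)efl, was a dim transcript with 12.7, 13.7 and 12.5 units at 30 °C, against 6.56, 4.28 and 4.95 units at 25 °C, well above background on 2 of 3 arrays at 30 °C and on 0 of 3 at 25 °C (adjusted p = 0.00344), with a mean at 30 °C under the floor of detection of the 25 °C arrays. The Hsp27 call was lost without 25 °C replicate 2 or without 30 °C replicate 1 or 2, where its adjusted p reached 0.0112. That of l(2)efl was lost without any array other than 25 °C replicate 1 (adjusted p up to 0.0168). Of the 6 genes called without 25 °C replicate 1, CG4461 was also dim, with 13.8, 12.8 and 9.97 units at 30 °C. Its signals at 25 °C were 36.4, 3.96 and 3.86 units. The filter on dim probes took any temperature, so that genes as dim as these 2 could enter through 30 °C, where they are high. CG14207 had the smallest change of the list, at 0.10 ± 0.14.

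**Figure D2:**
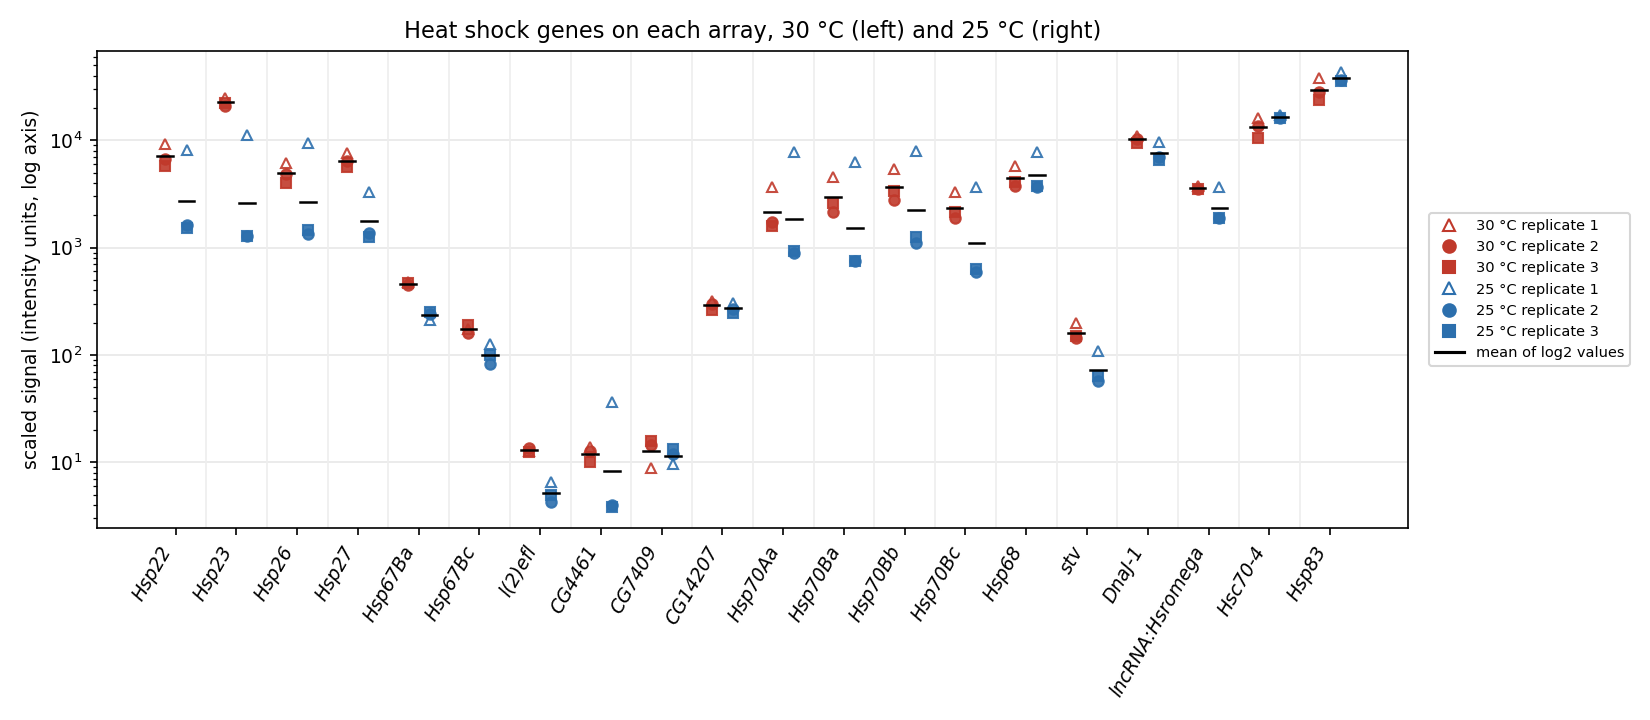
Signal of 20 heat shock genes (intensity units, log axis) on each array, with 30 °C in red to the left and 25 °C in blue to the right, replicate 1 as open triangles, and the mean as a bar. The open blue triangle of Hsp23, at 11102 units, lies far above the other 25 °C points at 1275 and 1291 units, and the same array is high for Hsp22, Hsp26 and the Hsp70 genes.

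The Hsp70 genes showed the same division among the 25 °C arrays. Hsp70Ba gave 4574, 2132 and 2594 units at 30 °C, against 6318, 754 and 753 units at 25 °C. Hsp70Bc gave 3321, 1875 and 2128 units at 30 °C, against 3665, 593 and 632 units at 25 °C. For both the first 25 °C array exceeded every other array, and the changes of 0.94 ± 0.67 (adjusted p = 0.361) and 1.09 ± 0.56 (adjusted p = 0.201) did not pass the test. Without this array the change was 1.96 ± 0.27, adjusted p = 8.72e-04 for Hsp70Ba, 1.64 ± 0.32, adjusted p = 0.00535 for Hsp70Bb and 1.95 ± 0.23, adjusted p = 3.48e-04 for Hsp70Bc, whereas Hsp70Aa remained under the threshold (1.24 ± 0.47, adjusted p = 0.0915). The Hsp70 copies are nearly identical in sequence, so the probes may share signal. Of the 20 genes of the Hsp70 and Hsp90 system, 1 was called higher and 0 lower, and the median was -0.01. The called gene was stv, which encodes a BAG-domain cofactor of Hsp70. It gave 197, 144 and 149 units at 30 °C, against 109, 57.1 and 63.2 units at 25 °C (1.14 ± 0.25, adjusted p = 0.00774), and the call was lost without any array other than 25 °C replicate 1 (adjusted p up to 0.0339). DnaJ-1, the main inducible J-domain partner of Hsp70, gave 10946, 10286 and 9390.4 units at 30 °C, against 9553, 6936 and 6577 units at 25 °C, and the change of 0.43 ± 0.15 did not pass. The constitutive Hsc70-4 and Hsp83, the fly Hsp90, were not higher. Hsp83 gave 38226, 28406 and 23948 units at 30 °C, against 42911, 36786 and 35535 units at 25 °C, a difference of -0.37 ± 0.18 (adjusted p = 0.174).

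The 8 subunits of the cytosolic chaperonin all lay below their level at 25 °C. None was called, and the changes were all less than 2-fold, between -0.69 (CCT8) and -0.42 (CCT4) with a median of -0.54. For all 8 genes every 30 °C array lay below every 25 °C array, as it did for 24.1% of all genes. CCT8 gave 12064, 10938 and 9045 units at 30 °C, against 17793, 15986 and 17537 units at 25 °C (adjusted p = 0.00247). CCT2 gave 13990.2, 11646 and 10985 units at 30 °C, against 21338, 19060 and 17648 units at 25 °C (adjusted p = 0.00295). The median was -0.48 on slide 1 and -0.57 on slide 2, and -0.29 with scaling on spike-in controls. Chaperones of the mitochondria and of the endoplasmic reticulum (ER) had medians of 0.07 and -0.02, with no member called among 10 and 27 tested. The most positive changes in these lists were those of CG11267, the mitochondrial Hsp10, at 0.49 ± 0.12 (adjusted p = 0.0143) and of crc, the fly ATF4, at 0.55 ± 0.15 (adjusted p = 0.0221), and Hsc70-3, the ER Hsp70 or BiP, gave 0.10 ± 0.15 (adjusted p = 0.715).

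A similar shift without calls was seen for the proteasome, which degrades ubiquitin-tagged proteins. Of its 32 genes, 31 were below 0, with a median of -0.42, -0.25 on slide 1 and -0.49 on slide 2. The AAA ATPase subunit Rpt4 was at the lower end and gave 15621, 13690.5 and 15624 units at 30 °C, against 24139, 24744 and 25509.5 units at 25 °C (-0.73 ± 0.10, adjusted p = 5.60e-04). The exception was Prosbeta1 at 0.14 ± 0.11 (adjusted p = 0.385). With scaling on spike-in controls the proteasome median was -0.18, and it kept its sign under each alternative. The list belongs to 14 that the study curated and filtered on the signal of these samples. In these 14 lists together, 10 had no called member. They included glycolysis (-0.06, 16 genes), the TCA cycle (-0.14, 19 genes), oxidative phosphorylation (-0.0017, 84 genes), the mitochondrial (-0.03, 65 genes) and cytoplasmic ribosome (-0.17, 77 genes) and S phase (-0.05, 36 genes), all as median log2 changes. With scaling on spike-in controls these 6 medians were positive, between 0.07 and 0.24. Without 25 °C replicate 1 the glycolysis median was 0.19 and 1 autophagy gene was called higher. The only call among the 35 M phase genes was Kmn1, a kinetochore subunit, which fell to 391.6, 301 and 210.2 units at 30 °C, against 649, 733 and 769 units at 25 °C (-1.30 ± 0.26, adjusted p = 0.00421). That call was lost without 25 °C replicate 2 or 3 or 30 °C replicate 2 or 3 (adjusted p up to 0.0176).

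**Figure D3:**
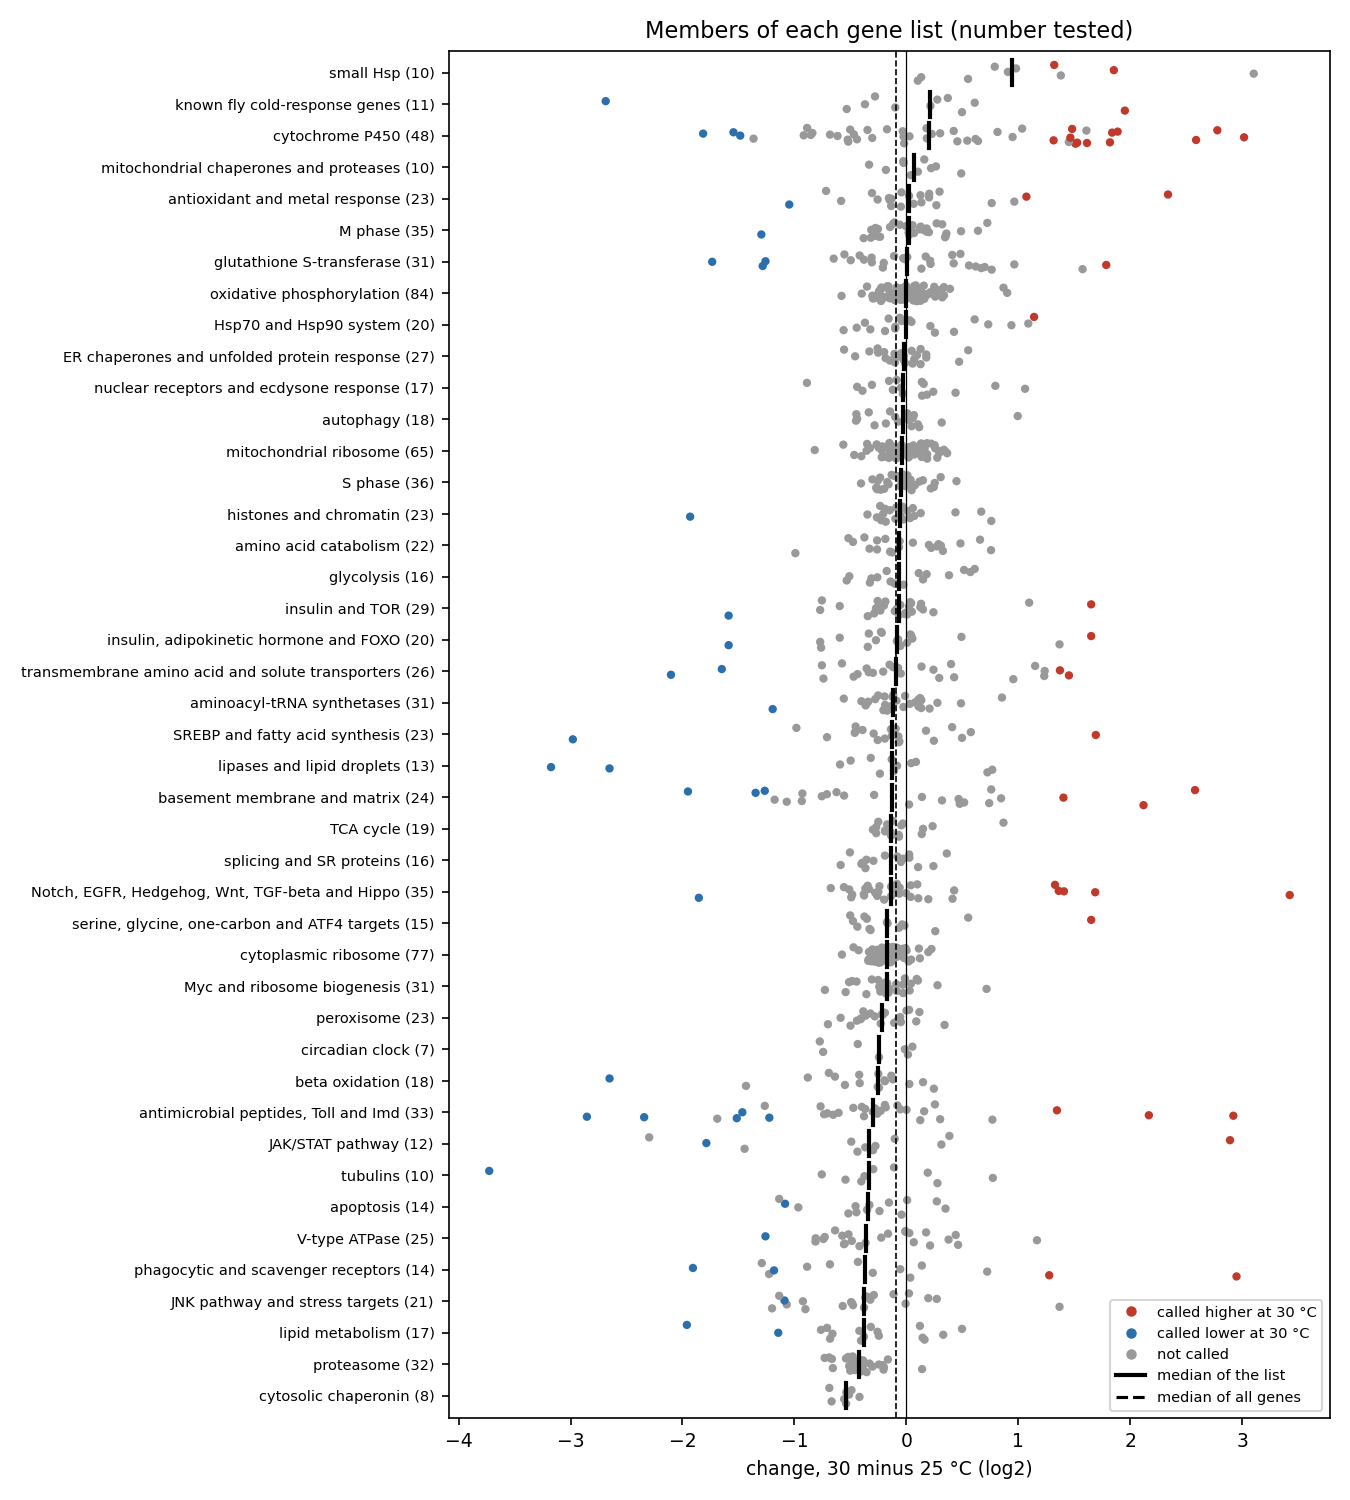
Change between 30 and 25 °C (log2) of each tested member of the 43 gene lists, in rows ordered by their median (black bar). Red and blue points were called higher and lower at 30 °C and grey points were not called, and the dashed line is the median of all genes (-0.09). The small Hsp genes stand at the top with a median of 0.94 and the chaperonin subunits at the bottom with -0.54.

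The largest rises were ranked among genes detected with all their probes on each of the 6 arrays and whose signal reached 100 units in the brighter group. First among these was mspo (array identifier CG10145-RA), a secreted protein of the spondin family, with 836, 909 and 731 units at 30 °C, against 47.4, 49.4 and 35.1 units at 25 °C, an 18.9-fold rise (4.24 ± 0.29, adjusted p = 5.04e-06). Dhit (3 probes), a regulator of G-protein signalling, gave 694, 634 and 591 units at 30 °C, against 56.3, 53.5 and 54.6 units at 25 °C and rose 11.7-fold (3.54 ± 0.14, adjusted p = 3.26e-07). These were followed by Gbs-76A (CG9619-RA), which targets protein phosphatase 1 to glycogen, with 206, 206 and 204 units at 30 °C, against 32.2, 16.1 and 19.98 units at 25 °C (3.24 ± 0.36, adjusted p = 1.13e-04). The ABC transporter gene CG10505 gave 196, 164 and 169 units at 30 °C, against 25.7, 15.1 and 18.2 units at 25 °C, a 9.18-fold rise (3.20 ± 0.18, adjusted p = 1.34e-06). The ranking also required that the 3 arrays of 30 °C not overlap the 3 of 25 °C, as held for all 675 called genes.

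Of the other genes of these 12, Nepl4 (CG9505-RA), a neprilysin-like peptidase, gave 776, 867 and 981 units at 30 °C, against 126, 103 and 105 units at 25 °C (2.97 ± 0.16, adjusted p = 1.34e-06). Nrx-1, the fly neurexin known as an adhesion protein of synapses, gave 891, 998 and 1159.9 units at 30 °C, against 121, 153 and 150 units at 25 °C (2.85 ± 0.14, adjusted p = 8.30e-07). The Jak/Stat pathway member et, a short receptor that restrains the pathway, gave 307, 339 and 421 units at 30 °C, against 47.9, 47.1 and 47.3 units at 25 °C, a 7.43-fold rise (2.89 ± 0.15, adjusted p = 9.42e-07). SkpB (CG8881-RA), a relative of the Skp1 subunit of SCF ubiquitin ligases, gave 714, 754 and 756 units at 30 °C, against 130.2, 103 and 94.6 units at 25 °C (2.78 ± 0.22, adjusted p = 1.37e-05). For CG4984 and CG31974, for which no role is given here, the rises were 7.85-fold and 7.43-fold, with means of 237 units at 30 °C and 30.2 units at 25 °C for CG4984 and of 422 units at 30 °C and 56.8 units at 25 °C for CG31974. The remaining 2 of the 12, Cyp4d2 and Cyp6g2, belong to the cytochrome P450 genes described further on. Each of these 12 calls held when any array of either temperature was left out.

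**Figure D4:**
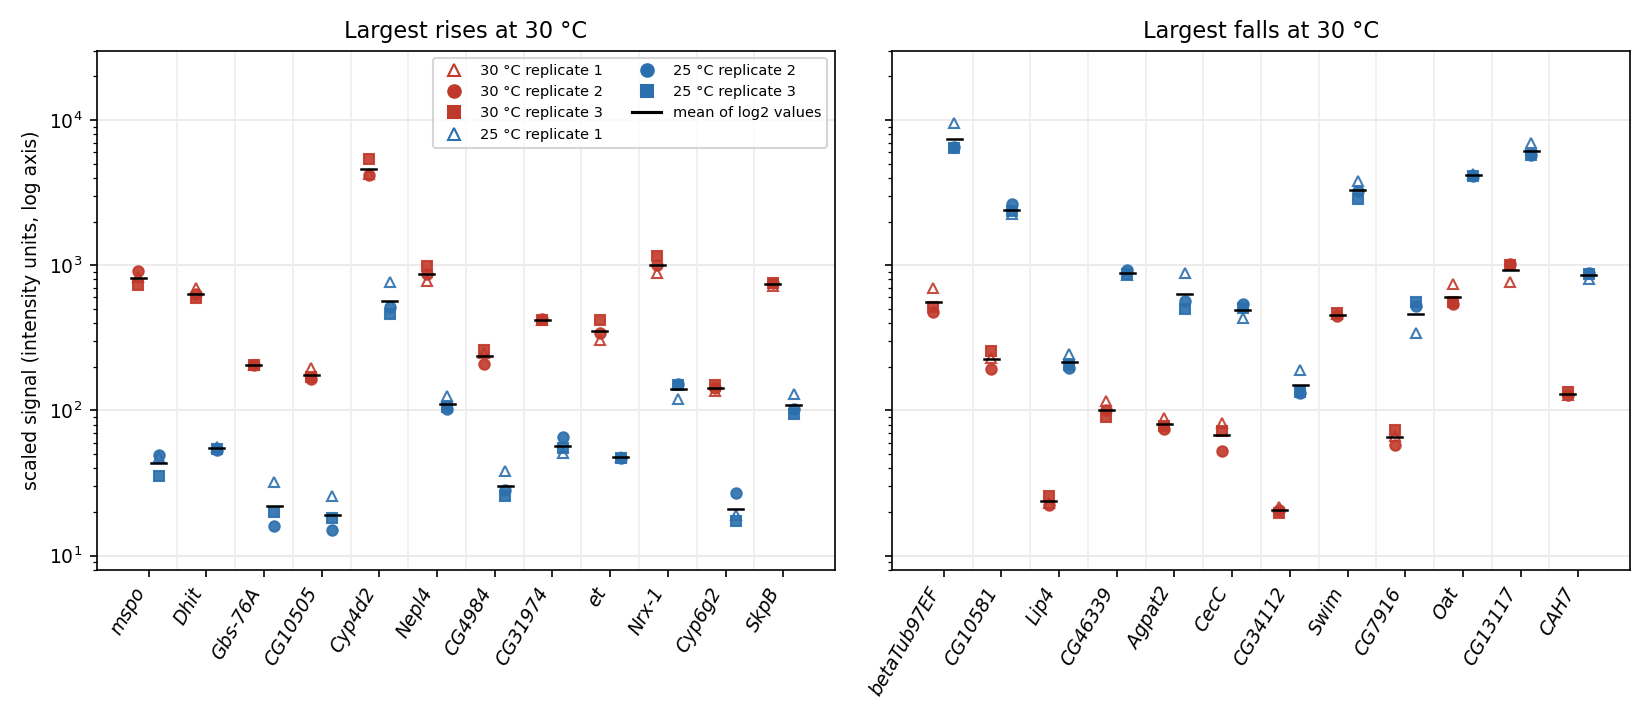
Signal (intensity units, log axis) of the 12 genes with the largest rises (left panel) and the 12 with the largest falls (right panel) on each array, with 30 °C in red to the left of 25 °C in blue, replicate 1 as open triangles and means as bars. No gene shows overlap, which the choice of these genes required. For mspo the 30 °C points lie between 731 and 909 units, against 35.1 to 49.4 units at 25 °C.

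The largest fall was that of betaTub97EF (CG4869-RA), a beta-tubulin isotype, with 699, 479 and 515 units at 30 °C, against 9533, 6542 and 6409.6 units at 25 °C, a 13.2-fold lower level at 30 °C (-3.73 ± 0.20, adjusted p = 1.16e-06). None of the other 9 tubulin genes tested was called. The major isotypes betaTub56D and alphaTub84B gave -0.37 ± 0.13 and -0.40 ± 0.31. CG10581, of no role given here, was next with 231, 193 and 256 units at 30 °C, against 2243, 2656 and 2375 units at 25 °C (-3.42 ± 0.19, adjusted p = 1.34e-06). Swim, a secreted protein that binds Wingless, gave 460.5, 444 and 467 units at 30 °C, against 3815, 3247 and 2856 units at 25 °C (-2.84 ± 0.15, adjusted p = 1.16e-06), and Oat, the ornithine aminotransferase of mitochondria, gave 738, 539.8 and 561 units at 30 °C, against 4226, 4137 and 4112 units at 25 °C (-2.78 ± 0.18, adjusted p = 4.08e-06). CAH7, a carbonic anhydrase, fell to 128, 127 and 133 units at 30 °C, against 805, 883 and 869.7 units at 25 °C (-2.72 ± 0.12, adjusted p = 6.32e-07). The fold was 8.74-fold lower for CG46339, 7.21-fold for CG34112, 7.04-fold for CG7916 and 6.61-fold for CG13117, the last with 924 units at 30 °C and 6105 units at 25 °C. The remaining members of the 12, Lip4, Agpat2 and CecC, are described with their groups. Each call held when any array was left out.

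The lipase gene Lip4 and the acyltransferase gene Agpat2 were among the largest falls. Of 13 genes of lipases and lipid droplets, 0 rose and 2 fell, with a median of -0.13, or 0.11 with spike-in scaling. Lip4 (CG6113-RA), a lipase, gave 22.9, 22.5 and 25.9 units at 30 °C, against 246, 196 and 204 units at 25 °C (-3.17 ± 0.15, adjusted p = 6.63e-07), and Agpat2, which acylates lysophosphatidic acid on the way to phospholipids and triglycerides, gave 89.3, 73.9 and 78.4 units at 30 °C, against 890.3, 571 and 500 units at 25 °C (-2.98 ± 0.20, adjusted p = 5.28e-06). In Agpat2 the first 25 °C array was the highest. Lip3 fell to 11.6, 9.95 and 9.47 units at 30 °C, against 96, 51.5 and 55 units at 25 °C (-2.65 ± 0.31, adjusted p = 1.59e-04), with 2 of 3 signals at 30 °C well above background, and was the only call among 18 beta oxidation genes. Among the 17 lipid metabolism genes of the study, 0 rose and 2 fell, with a median of -0.38. These were pdgy, an acyl-CoA synthetase, at 127, 112 and 110.2 units at 30 °C, against 419, 493 and 448 units at 25 °C (-1.96 ± 0.12, adjusted p = 2.54e-06), and CG5853, an ABC transporter (-1.14 ± 0.13, adjusted p = 1.51e-04). The change of CG5853 was under 2-fold with spike-in scaling. FASN2, a fatty acid synthase, was called higher but was dim, with 36.2, 26.8 and 34.1 units at 30 °C, against 12.5, 6.44 and 12.1 units at 25 °C, and was not well above background on any 25 °C array (at least 2.39-fold higher, 1.69 ± 0.26, adjusted p = 8.84e-04). FASN2 and Agpat2 were the only calls among 23 SREBP and fatty acid synthesis genes, whose median was -0.13.

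Matrix and adhesion genes of hemocyte-like cells differed in direction. Both subunits of collagen IV, the network-forming collagen of basement membranes, rose. The signals of vkg were 6291, 6134 and 5978 units at 30 °C, against 847, 1080.4 and 1179.6 units at 25 °C, a 5.98-fold rise (2.58 ± 0.18, adjusted p = 6.50e-06). Those of Col4a1 were 3171, 3318 and 2076 units at 30 °C, against 508, 694 and 755 units at 25 °C, a 4.35-fold rise (2.12 ± 0.29, adjusted p = 4.87e-04). Pxn, a peroxidase that crosslinks collagen IV, gave 593, 449 and 564 units at 30 °C, against 140.2, 228 and 252 units at 25 °C (1.40 ± 0.27, adjusted p = 0.00377). This call was lost without 25 °C replicate 1 or 30 °C replicate 1 or 3 (adjusted p up to 0.0172). The laminin subunits LanA, LanB1 and LanB2 lay above 0, at 0.48 ± 0.16, 0.74 ± 0.25 and 0.52 ± 0.28, and did not pass the test. Falls were seen for trol, the perlecan of the fly (444, 331 and 424 units at 30 °C, against 1073, 893 and 902 units at 25 °C, -1.26 ± 0.18, adjusted p = 6.87e-04), and for the integrin alpha subunits mew (561, 449 and 447 units at 30 °C, against 1081, 1326 and 1293 units at 25 °C, -1.35 ± 0.19, adjusted p = 5.30e-04) and scb (14.9, 17.6 and 15.2 units at 30 °C, against 97.7, 49.7 and 47.3 units at 25 °C). The scb change was -1.95 ± 0.28, adjusted p = 5.98e-04, and not all of its probes were above background on any array. In this list of 24 genes, 3 rose and 3 fell, and the median was -0.13, or 0.11 with spike-in scaling.

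Receptors and secreted proteins of blood cells also split. Hml, the hemolectin of circulating hemocytes, was a dim transcript that rose 7.73-fold, with 95.3, 85.9 and 85.3 units at 30 °C, against 10.8, 12.7 and 11.1 units at 25 °C (2.95 ± 0.45, adjusted p = 8.93e-04), and was above background on 2 of 3 arrays at 25 °C. NimC1, a phagocytic receptor, was called higher at 13.9, 18.2 and 17.1 units at 30 °C, against 9.11, 4.66 and 7.13 units at 25 °C (at least 1.23-fold higher, 1.28 ± 0.28, adjusted p = 0.00713), but was not well above background on any 25 °C array. The call was lost with a replicate block and without any array other than 25 °C replicate 1 (adjusted p up to 0.0323). In contrast Tep2, a thioester-containing protein that binds microbes, fell to 404, 424 and 463 units at 30 °C, against 2100, 1433 and 1387 units at 25 °C (-1.91 ± 0.18, adjusted p = 4.68e-05), and Sr-CIV, a scavenger receptor, fell to 24, 22.6 and 20.4 units at 30 °C, against 69, 45.5 and 41.1 units at 25 °C (-1.18 ± 0.22, adjusted p = 0.00297). This call was lost without 25 °C replicate 1 or 30 °C replicate 2 or 3 (adjusted p up to 0.0153). Of the 14 receptors tested, 2 rose and 2 fell, and the median was -0.37. Among the other markers of hemocyte-like cells, He fell to 42.5, 31.5 and 56.5 units at 30 °C, against 128, 117 and 114 units at 25 °C (-1.502 ± 0.20, adjusted p = 3.69e-04), the only other marker called beside those above. The remaining 7 did not pass. Of these, srp changed by -0.36 ± 0.16, ush by -0.02 ± 0.18 and crq by 0.14 ± 0.13, while pnr gave -0.62 ± 0.16 (adjusted p = 0.0158), Ppn 0.85 ± 0.21 (adjusted p = 0.0155) and Sr-CI 0.72 ± 0.17 (adjusted p = 0.0118). The phagocytic receptor gene eater gave 107.1, 87.3 and 89.9 units at 30 °C, against 206, 255 and 235 units at 25 °C, without overlap between the groups, and its change of -1.29 ± 0.35 missed the threshold (adjusted p = 0.0222).

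Antimicrobial peptide genes and regulators of the Toll and Imd pathways, which switch on these peptides after infection, gave 3 rises and 5 falls among 33 genes, with a median of -0.30. The falls were led by the cecropins, small peptides that lyse bacteria. CecC fell to 82.4, 52.8 and 72.6 units at 30 °C, against 434, 538 and 511 units at 25 °C (-2.85 ± 0.23, adjusted p = 1.55e-05). CecA1 fell to 66, 85.7 and 85.8 units at 30 °C, against 165, 261 and 263 units at 25 °C (-1.52 ± 0.29, adjusted p = 0.00367). CecA2 fell to 16.3, 20.1 and 23.4 units at 30 °C, against 41.9, 40.2 and 57.7 units at 25 °C (-1.22 ± 0.26, adjusted p = 0.00645). CecB, well above background on 1 of 3 arrays at 30 °C, fell to 4.08, 5.91 and 4.6 units at 30 °C, against 30.7, 17.3 and 27.1 units at 25 °C (-2.34 ± 0.28, adjusted p = 2.00e-04). The cecropin genes are closely related and their probes may share signal. The calls of CecA1 and CecA2 were the least stable of these, since both were lost with scaling on the 75th percentile, on probes above background or on spike-in controls. That of CecA1 was also lost without any array other than 25 °C replicate 1 (adjusted p up to 0.017), and that of CecA2 without any of the 6 arrays and with a replicate block (adjusted p up to 0.0272). PGRP-LB, an amidase that dampens the Imd pathway, fell to 10.65, 10.1 and 9.69 units at 30 °C, against 22.2, 30.6 and 32.4 units at 25 °C (-1.47 ± 0.17, adjusted p = 1.60e-04). Both diptericin genes rose. DptB gave 98.3, 103 and 114 units at 30 °C, against 22.8, 21.3 and 26.2 units at 25 °C (2.17 ± 0.18, adjusted p = 1.52e-05). DptA gave 47.1, 39.6 and 39.7 units at 30 °C, against 5.99, 5.83 and 4.87 units at 25 °C, not above background at 25 °C (at least 3.17-fold higher, 2.92 ± 0.34, adjusted p = 1.59e-04). PGRP-SA, a secreted sensor of the Toll pathway, rose to 6478, 5209.8 and 6239 units at 30 °C, against 2161, 2557 and 2319 units at 25 °C (1.35 ± 0.17, adjusted p = 3.27e-04). The transducers Rel (-0.37 ± 0.14), Dif (-0.38 ± 0.13) and dl (-0.18 ± 0.17) did not pass.

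Genes of detoxification had the largest number of calls of any list. Of 48 cytochrome P450 genes tested, out of 82 with probes, 12 rose and 3 fell, and the median was 0.21. Genes above background at 30 °C and not at 25 °C, such as Cyp309a1, can enter the 48 through their rise. The part of this in the counts was not tested. P450 enzymes oxidise hormones, fatty acids and toxins. Cyp4d2 (CG3466-RA) gave 4260, 4190 and 5421 units at 30 °C, against 769.8, 513 and 461 units at 25 °C, an 8.1-fold rise (3.02 ± 0.20, adjusted p = 4.97e-06). Cyp6g2 gave 136, 143 and 149 units at 30 °C, against 19.2, 27.1 and 17.3 units at 25 °C (2.78 ± 0.19, adjusted p = 6.50e-06). Cyp6a23 gave 758, 783 and 597 units at 30 °C, against 267, 175 and 165 units at 25 °C (1.84 ± 0.20, adjusted p = 1.21e-04) and Cyp6d2 gave 279, 253 and 261 units at 30 °C, against 114, 61.3 and 52.1 units at 25 °C (1.89 ± 0.29, adjusted p = 0.00105), with the first 25 °C array the highest of its group for both. Cyp309a1 was not above background at 25 °C and rose at least 3.99-fold, with 54.9, 49.6 and 62.9 units at 30 °C, against 15, 7.22 and 7.27 units at 25 °C (adjusted p = 0.00137). Cyp6a2 fell to 150.1, 116 and 127 units at 30 °C, against 610.1, 417 and 381 units at 25 °C (-1.82 ± 0.24, adjusted p = 4.09e-04). Cyp4p2 fell to 17.9, 16.2 and 11.7 units at 30 °C, against 48.6, 39.7 and 38.5 units at 25 °C (-1.48 ± 0.20, adjusted p = 4.01e-04), and Cyp6a8 was called lower at 2.78, 3.76 and 3.75 units at 30 °C, against 12.9, 8.26 and 9.16 units at 25 °C (at least 1.015-fold lower, -1.54 ± 0.31, adjusted p = 0.00511), above background on 1 of 3 arrays at 25 °C and on none at 30 °C, a call lost without any of the 6 arrays (adjusted p up to 0.0219).

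Of 31 glutathione S-transferase genes, whose products couple toxins to glutathione, 1 rose and 3 fell, while 2 rose with a replicate block and 3 without 25 °C replicate 1. GstD9 rose to 7386, 6117 and 6329 units at 30 °C, against 2819, 1681 and 1470.1 units at 25 °C (1.79 ± 0.25, adjusted p = 5.60e-04). GstE3 fell to 5218, 4500.1 and 4744 units at 30 °C, against 11987, 11684 and 10889.7 units at 25 °C (-1.26 ± 0.11, adjusted p = 2.90e-05) and GstE2 to 225, 199 and 206 units at 30 °C, against 631, 797 and 676 units at 25 °C (-1.73 ± 0.13, adjusted p = 7.42e-06). GstD7 fell to 17.3, 20.4 and 18.8 units at 30 °C, against 60.6, 41.1 and 38.5 units at 25 °C (-1.28 ± 0.28, adjusted p = 0.00694), a call that was lost without any of the 6 arrays (adjusted p up to 0.0256). Among 23 genes of the antioxidant and metal response, Prx6c, a peroxiredoxin, was called higher with 638, 577 and 570.4 units at 30 °C, against 244, 285 and 325 units at 25 °C (1.07 ± 0.21, adjusted p = 0.00432). Gclc, the catalytic subunit of the first enzyme of glutathione synthesis, was called lower with 337, 285 and 307 units at 30 °C, against 892, 568 and 509.8 units at 25 °C (-1.05 ± 0.21, adjusted p = 0.00458). Both calls were lost without any array other than 25 °C replicate 3 (adjusted p up to 0.0174 and 0.0231). That of Gclc was also lost with quantile normalization and with scaling on the 75th percentile, on probes above background or on spike-in controls. Sod3, an extracellular superoxide dismutase that was not above background at 25 °C, rose at least 1.63-fold, with 21.6, 22.2 and 21 units at 30 °C, against 5.49, 3.54 and 4.02 units at 25 °C (adjusted p = 2.75e-05).

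In growth and nutrient signalling the targets Thor and Ilp6 changed in opposite directions. Thor, the fly 4E-BP, restrains cap-dependent translation and is transcribed under FOXO and ATF4. It rose to 3880.1, 3636 and 3917 units at 30 °C, against 2101, 923 and 918 units at 25 °C (1.65 ± 0.31, adjusted p = 0.00343), and its changes were 0.88 on slide 1 and 2.04 on slide 2. The call was lost without any array other than 25 °C replicate 1 (adjusted p up to 0.0162). Ilp6, an insulin-like peptide, fell to 58.3, 40.3 and 42.9 units at 30 °C, against 147, 134 and 139 units at 25 °C (-1.59 ± 0.19, adjusted p = 2.16e-04). On no array were all 3 Ilp6 probes above background. The median of the insulin and TOR list was -0.07 over 29 genes, with no other call in the main fit. Without 25 °C replicate 1, 2 genes of this list were called higher and 1 lower. Of 26 transporter genes, 2 rose and 2 fell, while 5 rose without 25 °C replicate 1. The amino acid transporter JhI-21 rose to 24806, 20272 and 19034 units at 30 °C, against 10733, 7519.9 and 6829 units at 25 °C (1.37 ± 0.17, adjusted p = 2.76e-04) and the carcinine transporter CarT to 98.7, 76.8 and 74.5 units at 30 °C, against 41.7, 24.9 and 26.5 units at 25 °C (1.45 ± 0.21, adjusted p = 6.40e-04). The organic cation transporter gene Orct2 fell to 4836, 4696 and 4510 units at 30 °C, against 21185, 13407 and 11119 units at 25 °C (-1.65 ± 0.19, adjusted p = 1.87e-04) and the chloride channel gene ClC-a fell to 14.9, 17.4 and 15.3 units at 30 °C, against 81.3, 67.4 and 57.2 units at 25 °C (-2.10 ± 0.20, adjusted p = 4.08e-05). On no array were all 3 ClC-a probes above background. Of 31 aminoacyl-tRNA synthetase genes, only the mitochondrial ArgRS-m was called in the main fit, with 220.1, 178 and 181 units at 30 °C, against 528, 422 and 381 units at 25 °C (-1.19 ± 0.14, adjusted p = 1.56e-04). Its change was under 2-fold with spike-in scaling. Without 25 °C replicate 1, 1 synthetase gene was called higher and 1 lower.

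Among 35 ligands, receptors and targets of the Notch, EGFR, Hedgehog, Wnt, TGF-beta and Hippo pathways, 5 rose and 1 fell. The Notch ligand Ser rose 10.75-fold, with 131, 172 and 137 units at 30 °C, against 9.94, 26.39 and 9.51 units at 25 °C (3.43 ± 0.44, adjusted p = 2.97e-04), where 1 of 3 signals at 25 °C was above background. E(spl)m8-HLH, a repressor transcribed in response to Notch, fell to 1440.3, 1242 and 1053 units at 30 °C, against 4999, 3954 and 4502 units at 25 °C (-1.85 ± 0.31, adjusted p = 0.00158). The Wnt receptors fz and fz2 both rose, fz to 425, 367 and 372 units at 30 °C, against 169.6, 144 and 126 units at 25 °C (1.41 ± 0.20, adjusted p = 5.50e-04) and fz2 to 685, 596 and 607 units at 30 °C, against 309, 219.7 and 215 units at 25 °C (1.36 ± 0.21, adjusted p = 0.00101). The EGFR ligand vn rose to 91.5, 93 and 78.1 units at 30 °C, against 46.1, 31.1 and 29.3 units at 25 °C (1.33 ± 0.26, adjusted p = 0.00386). This call was lost without any array other than 25 °C replicate 1 (adjusted p up to 0.0186). All 4 vn probes were above background on 2 of 3 arrays at 30 °C and on 0 of 3 at 25 °C. The TGF-beta ligand dpp was not above background at 25 °C, and was called higher (adjusted p = 8.98e-04) with 15.8, 11.7 and 8.89 units at 30 °C, against 4.11, 3.99 and 2.99 units at 25 °C. No fold is given for dpp, since its mean at 30 °C lay under the floor of detection of the 25 °C arrays. In the JNK list, egr, the tumour necrosis factor of the fly, fell to 1162, 939 and 1009.6 units at 30 °C, against 2148, 2279.5 and 2163 units at 25 °C (-1.09 ± 0.15, adjusted p = 4.37e-04). It was the only call among 21 genes and was lost with spike-in scaling, quantile normalization, background subtraction or the brightest probe. With a replicate block, 1 gene of the JNK list was called higher and 3 lower, and 2 genes each of the apoptosis and Jak/Stat lists were called lower. The median of the 21 genes of the JNK list was -0.38, and that of 14 apoptosis genes was -0.34, with a single call, the fall of Eip93F (-1.08 ± 0.16, adjusted p = 7.64e-04), which was lost with spike-in scaling. Eip93F was dim, with means of 21.7 units at 30 °C and 46.1 units at 25 °C, and on no array were all 8 of its probes above background. Of the Jak/Stat genes, TotM, a stress-induced secreted peptide, fell to 8.34, 11.1 and 8.15 units at 30 °C, against 55.3, 28.8 and 19.5 units at 25 °C (at least 3.07-fold lower, -1.79 ± 0.36, adjusted p = 0.00489), with signals not above background at 30 °C. Its first 25 °C array was the highest, and the call was lost without any array other than 25 °C replicate 3 (adjusted p up to 0.0222).

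The list of known fly cold-response genes, chosen with earlier results of these data known, had 1 rise and 1 fall among 11 genes. The fall was that of pst, with 263, 168 and 177 units at 30 °C, against 1547, 1200.4 and 1124 units at 25 °C (-2.69 ± 0.20, adjusted p = 9.03e-06). The study itself picked pst from S2R+ expression and accessibility data for higher levels in the cool, so this fall is not independent of that choice. The rise was that of Dsk, a neuropeptide gene, at 62.2, 60.1 and 50.2 units at 30 °C, against 15.8, 16.3 and 12.6 units at 25 °C (1.95 ± 0.43, adjusted p = 0.0074). This call was lost with a replicate block and without any of the 6 arrays (adjusted p up to 0.0287). HDAC11, a histone deacetylase, fell to 30.4, 27.7 and 23.7 units at 30 °C, against 119, 106.9 and 86.9 units at 25 °C (-1.93 ± 0.17, adjusted p = 2.22e-05) and was the only call among 23 histone and chromatin genes. Of 25 V-type ATPase subunits, which acidify endosomes, the only call was Vha68-3, which was not above background on any of the 6 arrays and was lost without 25 °C replicate 2 or 3 or 30 °C replicate 1 or 2 (adjusted p up to 0.0214), and the median was -0.36, -0.12 with spike-in scaling. No member was called among 31 Myc and ribosome biogenesis genes (-0.17), 16 splicing genes (-0.14), 17 nuclear receptor and ecdysone genes (-0.03) or 7 clock genes (-0.24), where the values are medians. Without 25 °C replicate 1, 1 nuclear receptor and ecdysone gene was called higher and the median of that list was 0.15.

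The levels of these genes at 14 and 11 °C were read beside those at 25 and 30 °C. Replicates 2 and 3 of 14 and 11 °C were on slide 3, whereas those of 25 and 30 °C were on slide 2. For these replicates, temperature cannot be told apart from slide between the cool and the warm groups. The number of cells plated differed as well. The mean signal of betaTub97EF was 18292 units at 11 °C, 22939 at 14 °C, 7366 at 25 °C and 556 at 30 °C, and that of Lip4 was 2604 units at 11 °C, 3458 at 14 °C, 214 at 25 °C and 23.7 at 30 °C, so both were highest at a cool temperature. In contrast CG13117 gave 3795 units at 11 °C, 5990 at 14 °C, 6105 at 25 °C and 924 at 30 °C. CG10581 gave 1237 units at 11 °C, 2280.1 at 14 °C, 2419 at 25 °C and 225 at 30 °C, with 25 °C near the top. Oat gave 4392 units at 11 °C, 5346 at 14 °C, 4158 at 25 °C and 607 at 30 °C. CecC gave 510.1 units at 11 °C, 412 at 14 °C, 492 at 25 °C and 68.1 at 30 °C. Both Oat and CecC were lowest at 30 °C. Among the rises, CG31974 gave 6.79 units at 11 °C, 14.6 at 14 °C, 56.8 at 25 °C and 422 at 30 °C, in increasing order from the cool to the warm, and Cyp4d2 gave 174 units at 11 °C, 145 at 14 °C, 567 at 25 °C and 4591 at 30 °C. CG10505 gave 98.9 units at 11 °C, 75.9 at 14 °C, 19.2 at 25 °C and 176 at 30 °C. Gbs-76A gave 57.2 units at 11 °C, 44.6 at 14 °C, 21.8 at 25 °C and 206 at 30 °C, with the lowest level at 25 °C. The mean signal of et was 44.1 units at 11 °C, 42.3 at 14 °C, 47.5 at 25 °C and 352 at 30 °C. Dhit gave 42.7 units at 11 °C, 41 at 14 °C, 54.8 at 25 °C and 638 at 30 °C, with a range of less than 15 units up to 25 °C. All of these are mean signals of 3 arrays, and the differences from 25 °C share the same 3 arrays at 25 °C. The small Hsp gene Hsp23 gave 204 units at 11 °C, 127 at 14 °C, 2634 at 25 °C and 22650.3 at 30 °C. Hsp67Ba gave 108 units at 11 °C, 102 at 14 °C, 235 at 25 °C and 463 at 30 °C.

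**Figure D5:**
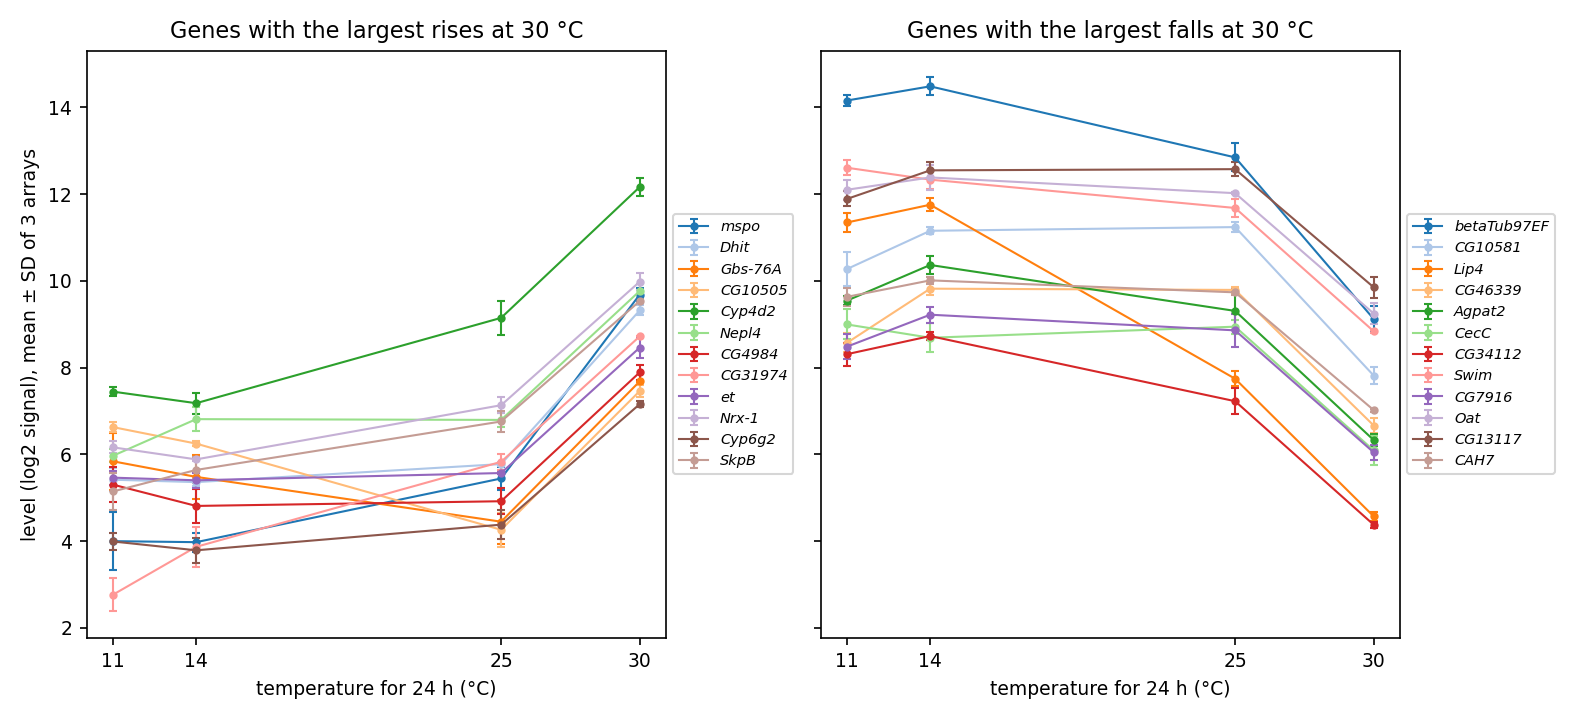
Level (log2 signal, mean ± SD of 3 arrays) of the 12 genes with the largest rises (left) and the 12 with the largest falls (right) at 11, 14, 25 and 30 °C. CG10505 and Gbs-76A are lowest at 25 °C, and betaTub97EF and Lip4 are highest at 14 °C, with 22939 and 3458 units.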

How the data were processed

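RNA of S2R+ cells was hybridised to 12 single-colour Agilent arrays, with 3 biological replicates at each of 4 temperatures, and per the file headers Agilent Feature Extraction 10.7.3.1 was the scanner software. The deposited intensity values are processed signals from which the software had subtracted background within each array, and they were not scaled between arrays. A deposited table of log2 values, which the authors scaled in GeneSpring to the arrays at 25 °C, was used as an alternative. At least 99.9% of its shared probes lay within 0.01 of the values computed here, once the median difference of each array was subtracted. No array had a saturated spot. Intensities carry no read depth, so the number of arrays limits precision.

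Control spots and outlier spots were removed, spots of a probe were averaged on the log2 scale and arrays were scaled by their median to the 25 °C arrays. Signals are given in scaled intensity units, and a mean signal is the antilog of mean log2 values. A probe was kept when 50% or more of its spots exceeded background in 2 or 3 replicates of any temperature. Of 32162 gene probes, 19488 were matched through a RefSeq gene table to 13059 genes, and the remaining probes kept the identifier of the array design. Probes of a gene were averaged. limma 3.58.1 in R 4.3.3 was fitted to all 12 arrays with a mean per temperature, and calls took a 2-fold change together with an adjusted p (Benjamini-Hochberg, over all features) under 0.01. Errors of log2 changes are SE. The fitting code was tested on simulated data. Where no probe of a gene was well above background on any array of the dimmer group, the fold is a lower bound, computed against the higher of the signal and the lowest signal of probes above background on the array.

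Named genes were the 12 largest rises and falls among bright genes called and detected on all 6 arrays, all called genes of the chaperone lists, and at most 5 called genes in each direction of each other list. For the 12 rises and falls, the arrays of 30 and 25 °C also had to be without overlap. A further part of the rule, for bright genes detected at a single temperature, gave 0 genes. Uncalled members and marker genes named beside these were chosen after their values were seen. The lists and members were chosen with earlier results of these data known. Of the 43 gene lists, 14 came from the study, which had filtered them on the signal of these samples. Replicates of the same number at 30 and 25 °C deviated together, with r of 0.53, 0.26 and 0.32 across features, each above 0.1, and the number was taken to pair them. The main fit had no block, so its adjusted p-values leave this pairing out. Replicate and slide blocks were run as alternatives. Unlike numbers on slide 2 correlated to a like degree, at 0.31 for 30 °C replicate 2 with 25 °C replicate 3 and at 0.20 for 30 °C replicate 3 with 25 °C replicate 2, so that number and slide cannot be told apart. Alternatives covered background correction, scaling, filters, probe summary, tests, blocks and the omission of each array. The scanner files used here held median rather than mean spot signals, and the normexp correction was run on these.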

Additional observations from a re-analysis of the deposited data

How the results depend on the processing

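In place of 630 higher and 512 lower features, limma's test against a fold of 1.5 called 260 and 185, local background subtraction, an alternative chosen after seeing the data, called 307 and 111, and probes with a signal over 100 gave 376 and 329. Spike-in scaling called 285 lower, and without a fold threshold 977 were lower. Scaling on the 75th percentile gave 725 higher and 440 lower. The normexp correction called 0 and 0 in limma, with 190 features at an unadjusted p under 0.05. Its background fit left the 5th percentile of log2 signal between 5.89 and 10.19 across arrays. Under it stv (-0.061), Prx6c (-0.091), Cyp6a8 (0.11) and Vha68-3 (0.19) reversed. Leaving out 1 array gave between 517 and 740 higher and between 383 and 499 lower features. Without the 25 °C array of replicate 1, 451 genes rose and 253 fell, and 573 of the 675 gene calls remained. With a replicate block, 665 features were higher and 568 lower, and among the 82 named genes it ended the calls of CecA2, Dsk and NimC1 alone. A slide block gave 681 higher and 614 lower features and ended the calls of Dsk and NimC1 alone. The deposited table kept all 82 calls, spike-in scaling 70 and local background subtraction 46. The calls lost with spike-in scaling were those of ArgRS-m, CG5853, CecA1, CecA2, Cyp6a8, Eip93F, Gclc, GstD7, Sr-CIV, TotM, Vha68-3 and egr. A fit of the 6 arrays alone ended those of Gclc, Hsp27, Kmn1, NimC1, Pxn, Sr-CIV, Thor, TotM, Vha68-3 and stv. Genes near background, such as l(2)efl and Sod3, are limited by signal.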

Other observations

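The genes below belong to none of the 43 lists and were chosen after their values were seen. Ant2, an ADP/ATP carrier of the inner mitochondrial membrane, fell to 11018, 7093 and 5932 units at 30 °C, against 58934, 44490.3 and 46842 units at 25 °C (-2.68 ± 0.21, adjusted p = 1.35e-05), whereas its neighbour and paralog sesB gave 44667, 37777 and 36887 units at 30 °C, against 50454, 50485 and 49751 units at 25 °C (-0.34 ± 0.13, adjusted p = 0.0809) and was not called. Sting, which triggers antiviral and antibacterial responses on binding cyclic dinucleotides, fell to 14337, 13778 and 14117 units at 30 °C, against 36371, 41678 and 36839.5 units at 25 °C (-1.44 ± 0.13, adjusted p = 3.20e-05). Rpt3R and Rpt6R, relatives of the proteasomal ATPase subunits, fell to 122, 95.6 and 114 units at 30 °C, against 449, 378 and 393 units at 25 °C (-1.88 ± 0.21, adjusted p = 1.09e-04) for Rpt3R, and to 1376, 1139 and 1102 units at 30 °C, against 2529, 2756 and 2453 units at 25 °C (-1.10 ± 0.18, adjusted p = 0.00126) for Rpt6R. In these 4 genes that fell every 30 °C array lay below every 25 °C array, and no called gene showed overlap.

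Relatives of SkpB also rose, SkpC to 398, 426 and 395 units at 30 °C, against 114, 121 and 148 units at 25 °C (1.68 ± 0.16, adjusted p = 4.25e-05) and SkpE to 47.9, 50.9 and 52.1 units at 30 °C, against 15.6, 16.4 and 15.2 units at 25 °C (1.68 ± 0.21, adjusted p = 2.33e-04), and their sequences are related, so probes may share signal. The integrin beta subunit gene Itgbn, also a lamellocyte marker, fell to 9.19, 7.35 and 8.79 units at 30 °C, against 104, 78.7 and 83.2 units at 25 °C (-3.39 ± 0.14, adjusted p = 4.22e-07), and was above background on 1 of 3 arrays at 30 °C.

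Among genes above background at 30 °C and not at 25 °C, zpg, a gap junction protein of the germ line, gave 88.9, 98.6 and 86.4 units at 30 °C, against 3.43, 3.62 and 3.44 units at 25 °C and was at least 6.89-fold higher (adjusted p = 1.34e-06). In the reverse direction Corp gave 7.15, 4.73 and 9.36 units at 30 °C, against 66.6, 53.3 and 59.2 units at 25 °C and was at least 6.09-fold lower (adjusted p = 9.92e-06).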
